A study of Mus musculus with 8 samples.

Results

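Integrins and laminins are the receptors and ligands through which liver cells hold on to their matrix. The gene table held 37 of their subunit genes among 34465 genes, found by matching gene symbols. No expression value entered the match, but members and lists were chosen with earlier results of these data known. They comprised 18 alpha integrin subunits, 8 beta integrin subunits and 11 laminin chains, the chains being 5 alpha, 3 beta and 3 gamma. The tests took 16443 genes whose signal averaged 1 or more across the 8 libraries, and 36 members were among them. Itgb6, an epithelial partner of the alphav subunit, was the member not tested: its signal was 0.93 at most and it was listed at 0 in 4 libraries.

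RNA was sequenced from whole mouse liver, with 2 libraries in each of 4 groups. All mice carried 2 floxed alleles of b-PDGFR (b-PDGFR fl/fl), the receptor beta for platelet-derived growth factor encoded by Pdgfrb, and were 3 months old on the 129S4/SvJae/FVB background. The groups were GFAP Cre +/- mice 72 h after partial hepatectomy, GFAP Cre -/- mice 72 h after partial hepatectomy, sham-operated GFAP Cre +/- mice and sham-operated GFAP Cre -/- mice, called Cre-positive and Cre-negative hereafter. Partial hepatectomy removes part of the liver and sets off regrowth of the remainder. The GFAP promoter drives Cre, which the study describes as giving a deletion in hepatic stellate cells, and all other liver cells of the sample contribute RNA too. The comparisons ask what the matrix receptor and laminin genes do after hepatectomy and whether the genotype alters it. The labels call the libraries duplicates and do not tie each to its own animal, so p-values measure only the spread between these libraries, which may be technical. In whole liver, fewer cells of a type and less RNA per cell cannot be told apart.

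Each integrin is a pair of an alpha and a beta subunit that spans the plasma membrane and joins matrix or cell-surface ligands to the actin cytoskeleton through talin and kindlin. Each laminin is a trimer of an alpha, a beta and a gamma chain that polymerises on cell surfaces and, with collagen IV, nidogen and perlecan, builds the basement membrane. Sinusoids of the liver lack a continuous basement membrane, while bile ducts and larger vessels have one, and stellate cells, endothelial cells and leukocytes carry different sets of integrins.

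Pdgfrb, the targeted gene, had a signal of 63.1 and 99.9 in the Cre-positive hepatectomy libraries, and 123 and 70.5 in Cre-negative hepatectomy, against 59.4 and 46.0 in Cre-positive sham and 49.8 and 63.3 in Cre-negative sham, so the genotypes overlapped in both conditions. Values per library summed to between 8617660 and 11583800, and the depth in reads is unknown. Some values of exactly 0 may stand for failed estimates, since albumin (Alb) was listed at 0 in 7 of the 8 libraries while Apoa1, another hepatocyte gene, lay between 38355 and 82420. The summed signal of 8 cell division genes was 992 to 2680 in hepatectomy libraries and 56.0 to 91.9 in sham libraries. All 8 genes passed the test as higher in hepatectomy livers averaged over genotypes, where 4.49% of all genes passed in either direction. The Cre-positive hepatectomy pair agreed least: the median ratio between its libraries was 1.61 over all genes and 1.81 over the 36 tested members, with 13 members differing more than 2-fold. That ratio over the members was 1.38 in Cre-negative hepatectomy, 1.23 in Cre-positive sham and 1.12 in Cre-negative sham, with 8, 4 and 2 members past 2-fold. Replicate 2 of Cre-positive hepatectomy also followed the GC content of transcripts, and results that rest on either library of that pair are given without it too.

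No integrin or laminin gene passed the test in any of the 6 comparisons (limma on log2(signal + 1), Benjamini-Hochberg adjusted p under 0.05 over 16443 genes). For hepatectomy against sham averaged over both genotypes, 0 of 36 members passed where 4.49% of all genes did. At an unadjusted p under 0.05 the count was 3 of 36 members against 23.8% of all genes. The members' median log2 fold change was 0.17 and that of all genes 0.12, and 25 of 36 members had a positive value, against 57.7% of all genes. Median-of-ratios scaling moved the all-gene median to -0.03 and the members' median to 0.04, so small shifts of either sign depend on the scaling. The 3 members under that unadjusted threshold were Lama4, Lamb3 and Itga5. All 4 hepatectomy libraries lay above all 4 sham libraries for 3 members, Itga2, Itga5 and Lamb3 (11.2% of all genes did so), and below them for 1 member, Lama4 (6.2% of all genes).

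**Figure D1:**
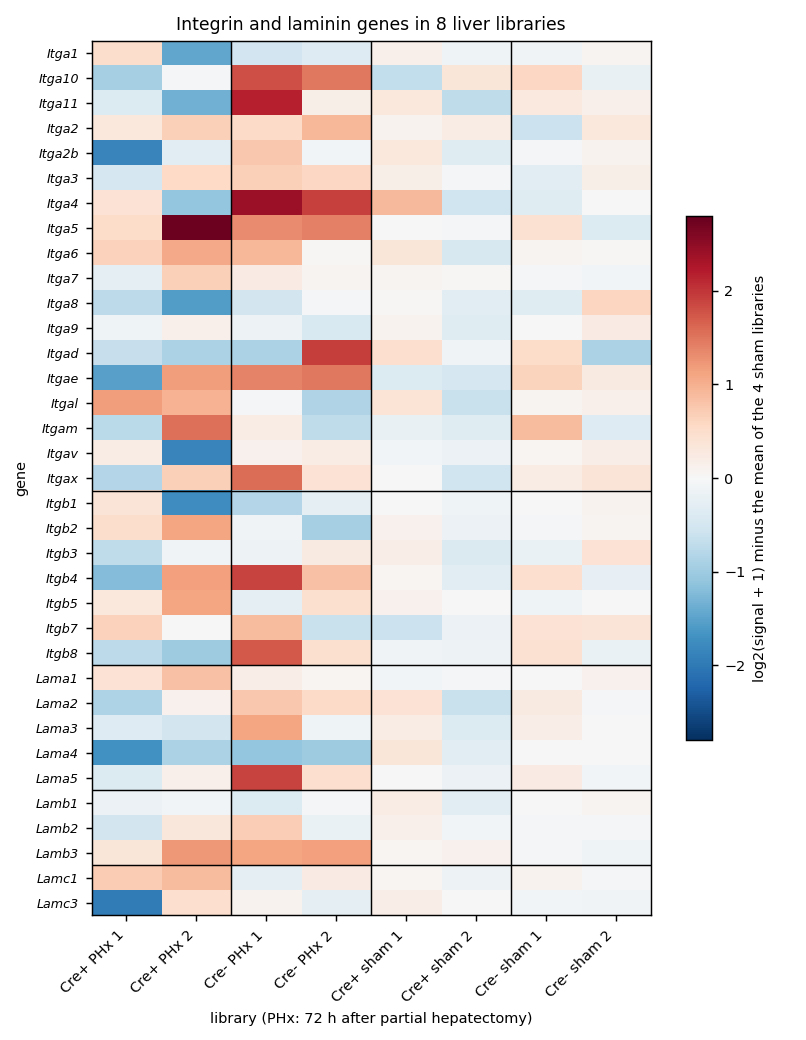
Rows are tested genes and each column is 1 library, with colour giving log2(signal + 1) minus the mean of the 4 sham libraries; PHx means 72 h after partial hepatectomy. Lama4 is below the sham mean in all 4 hepatectomy libraries, Itga5 and Lamb3 are above it in all 4, and the Cre-positive hepatectomy columns differ from each other, with Itgb1 at 0.37 in replicate 1 and -1.74 in replicate 2.

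The 250 bases before the annotated starts of the 3 genes above sham in all 4 hepatectomy libraries are shown because these genes shared a direction in every hepatectomy library. They are RefSeq sequences on GRCm38.p6, a later build than the mm9 of the deposited values, read 5′ to 3′ along the gene; 23 of the 37 members had an entry, Lama4 was not among them, and Lamb3 had 2 starts. Capitals mark matches to a GC box, GGGCGG, or to a TEAD site, GGAATG, on either strand; an AP-1 site, TGANTCA, was searched too.
Itga2, chr13:114932101-114932350, minus strand: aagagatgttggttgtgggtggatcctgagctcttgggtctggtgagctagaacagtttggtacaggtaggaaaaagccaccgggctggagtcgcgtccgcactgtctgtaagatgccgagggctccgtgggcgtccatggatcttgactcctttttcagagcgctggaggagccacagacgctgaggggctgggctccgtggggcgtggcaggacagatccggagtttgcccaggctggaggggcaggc
Itga5, chr15:103366792-103367041, minus strand: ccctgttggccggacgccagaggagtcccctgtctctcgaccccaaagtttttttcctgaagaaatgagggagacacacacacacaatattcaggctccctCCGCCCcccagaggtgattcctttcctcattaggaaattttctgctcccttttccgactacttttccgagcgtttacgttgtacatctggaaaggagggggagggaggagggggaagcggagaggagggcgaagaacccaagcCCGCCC
Lamb3, first start, chr1:193301744-193301993, plus strand: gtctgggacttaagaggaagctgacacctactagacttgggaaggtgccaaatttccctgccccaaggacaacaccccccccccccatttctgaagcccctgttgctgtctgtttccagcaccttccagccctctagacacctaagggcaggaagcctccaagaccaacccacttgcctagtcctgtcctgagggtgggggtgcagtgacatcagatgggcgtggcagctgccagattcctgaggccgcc
Lamb3, second start, chr1:193301993-193302242, plus strand: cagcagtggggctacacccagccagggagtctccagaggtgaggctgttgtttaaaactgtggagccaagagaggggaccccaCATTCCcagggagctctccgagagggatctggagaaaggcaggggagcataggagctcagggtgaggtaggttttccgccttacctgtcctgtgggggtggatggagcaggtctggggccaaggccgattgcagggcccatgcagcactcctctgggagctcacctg
Itga5 held 2 GC boxes and the second Lamb3 start 1 TEAD match, while Itga2 and the first Lamb3 start held none of the 3 motifs. Of 32851 promoters of the same length, 32.7% held a GC box, 12.6% a TEAD match and 6.7% an AP-1 match. Itga2 had 12 CpG and Itga5 11, against a median of 6 over all promoters, whereas the Lamb3 starts had 2 and 3. A match describes letters in the window only.

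Among the laminin alpha chains, Lama4, the chain of vessel walls and mesenchymal cells, was the member with the smallest p. Its signal was 19.5 and 34.8 in Cre-positive hepatectomy livers and 30.5 and 32.5 in Cre-negative hepatectomy livers, against 82.6 and 52.5 in Cre-positive sham livers and 65.6 and 64.5 in Cre-negative sham livers. It averaged 29.3 ± 6.78 after hepatectomy and 66.3 ± 12.4 after sham (SD, n = 4 each), and no hepatectomy library reached the lowest sham library. The averaged log2 fold change was -1.16 (SE 0.27, limma adjusted p = 0.059), with -1.30 in Cre-positive livers and -1.02 in Cre-negative livers. Over 16 other settings the averaged log2 fold change lay between -1.37 and -0.96. It was -0.96 without replicate 1 of Cre-positive hepatectomy and -1.37 without replicate 2. With all libraries, Lama4 passed with median-of-ratios scaling (limma adjusted p = 0.0369), where 3.85% of all genes passed. It also passed after removal of the GC trend (adjusted p = 0.0187), where 7.58% of all genes passed. It did not pass with other pseudocounts, other filters, quantile normalization or the intensity trend dropped.

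Among summed markers of cells that line or surround the sinusoids, those of quiescent stellate cells were lower and those of activated stellate cells higher in every hepatectomy library than in any sham library. Markers that passed are those for hepatectomy against sham averaged over genotypes, where 4.49% of all genes passed. The summed signal of 14 quiescent stellate cell markers was 2396 to 2863 in hepatectomy livers and 3933 to 5234 in sham livers, with none at 0. Of the 14, 1 passed as lower, Colec10 (log2 fold change -2.31, adjusted p = 0.0343). The sum does not stand for each marker. Of the 14, 4 had a positive log2 fold change, the targeted gene Pdgfrb among them, where 57.7% of all genes did. Their median was -0.63. The summed signal of 10 markers of activated stellate cells and myofibroblasts was 3054 and 4480 in Cre-positive hepatectomy and 2043 and 2430 in Cre-negative hepatectomy, against 1091 to 1702 in sham libraries, with none at 0. Of these 10, the collagen genes Col1a1 and Col3a1 passed as higher, by 2.30 and 1.14 on the log2 scale (adjusted p = 0.022 and 0.0347). Between genotypes after hepatectomy, only 3 of the 10 were higher in Cre-positive livers, although the sum was higher there. Their median log2 difference was -0.93, beside -0.23 for all genes. The sum of 10 sinusoidal endothelial markers was 1844 to 4203 in hepatectomy livers and 4201 to 5528 in sham livers, with Oit3, Fcgr2b and Kdr passing as lower and none at 0. These sums overlapped, since replicate 2 of Cre-positive hepatectomy was level with the lowest sham library. The sum of 9 vascular endothelial markers overlapped too, at 1072 to 2455 in hepatectomy livers and 1669 to 2064 in sham livers, with 0 of 9 passing. Within either genotype, 0 of these stellate and endothelial markers passed, where 1.11% of all genes did in Cre-negative and 0.943% in Cre-positive livers. The part of these cells in the Lama4 values was not tested.

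The other 4 laminin alpha chains showed no common course. Lama5, the main alpha chain of adult epithelia and vessels, had 59.5 and 86.1 in Cre-positive hepatectomy and 293 and 108 in Cre-negative hepatectomy, against 77.8 and 69.7 in Cre-positive sham and 90.6 and 74.1 in Cre-negative sham. Both Cre-negative hepatectomy libraries were the highest of the 8, and they differed more than 2-fold from each other. The averaged log2 fold change was 0.54 (SE 0.33, adjusted p = 0.347). Lama1, the alpha chain of embryonic basement membranes, had 85.6 and 114 in Cre-positive hepatectomy and 73.8 and 67.1 in Cre-negative hepatectomy, against 61.6 and 62.4 in Cre-positive sham and 64.3 and 70.1 in Cre-negative sham. Its averaged value was 0.37 (SE 0.19, adjusted p = 0.28), and it was 0.47 without replicate 1 of Cre-positive hepatectomy and 0.26 without replicate 2. Lama3, an epithelial chain, had 73.3 and 65.9 in Cre-positive hepatectomy and 204 and 86.6 in Cre-negative hepatectomy, against 109 and 72.4 in Cre-positive sham and 108 and 94.6 in Cre-negative sham, with 1 library above the rest. Lama2, the chain of muscle and nerve basement membrane, ranged from 14.3 to 46.5 in hepatectomy and from 17.1 to 36.0 in sham libraries.

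Lamb3, the beta chain that joins Lama3 in the epithelial anchoring laminin, had 29.4 and 55.1 in Cre-positive hepatectomy and 50.5 and 52.1 in Cre-negative hepatectomy, against 24.2 and 25.1 in Cre-positive sham and 22.0 and 21.2 in Cre-negative sham. All hepatectomy libraries were above all sham libraries, the nearest pair being 29.4 and 25.1. The means were 46.8 ± 11.7 after hepatectomy and 23.2 ± 1.84 after sham (SD, n = 4 each), a log2 difference of 0.95 (SE 0.26, adjusted p = 0.0898). The log2 difference was 1.17 without replicate 1 of Cre-positive hepatectomy and 0.73 without replicate 2. Hepatectomy and sham overlapped for Lama3, as given. Lamb1 and Lamb2 are the beta chains of most other laminins. Lamb1 had 74.0 and 77.7 in Cre-positive hepatectomy and 63.3 and 80.5 in Cre-negative hepatectomy, against 95.7 and 66.1 in Cre-positive sham and 83.8 and 87.8 in Cre-negative sham. Lamb2 had 56.4 and 100.3 in Cre-positive hepatectomy and 131 and 70.1 in Cre-negative hepatectomy, against 88.9 and 76.6 in Cre-positive sham and 78.2 and 78.8 in Cre-negative sham. Hepatectomy and sham overlapped for both.

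Lamc1, the gamma chain shared by most laminins, had 169 and 191 in Cre-positive hepatectomy and 86.1 and 122 in Cre-negative hepatectomy, against 108 and 93.7 in Cre-positive sham and 111 and 101 in Cre-negative sham. The Cre-positive hepatectomy pair was the highest and the other 6 libraries intermingled. The log2 difference was 0.83 in Cre-positive livers (SE 0.27, adjusted p = 0.253) and -0.05 in Cre-negative livers. Between genotypes after hepatectomy it was 0.81 (SE 0.27, adjusted p = 0.213), or 0.89 without replicate 1 and 0.72 without replicate 2 of Cre-positive hepatectomy. Lamc3, a gamma chain of few tissues, had 1.64 and 13.2 in Cre-positive hepatectomy and 10.04 and 7.62 in Cre-negative hepatectomy, against 10.7 and 9.24 in Cre-positive sham and 8.75 and 8.68 in Cre-negative sham. Its lowest and highest values were both in Cre-positive hepatectomy.

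Among the alpha integrins, Itga5, which with Itgb1 forms the main fibronectin receptor, had the largest averaged fold change. Its signal was 277 and 1306 in Cre-positive hepatectomy and 484 and 518 in Cre-negative hepatectomy, against 191 and 190.4 in Cre-positive sham and 259 and 149 in Cre-negative sham. The groups did not overlap, but replicate 1 of Cre-positive hepatectomy lay close to the highest sham value, and replicate 2 was far above all others. The averaged log2 fold change was 1.50 (SE 0.46, adjusted p = 0.12). It was 2.06 without replicate 1 of Cre-positive hepatectomy and 0.94 without replicate 2. Fn1, which encodes its ligand fibronectin, had 25314 and 20276 in Cre-positive hepatectomy and 11107 and 13112 in Cre-negative hepatectomy, against 21002 and 17764 in Cre-positive sham and 19274 and 22867 in Cre-negative sham, and did not pass (log2 fold change -0.28, adjusted p = 0.366).

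**Figure D2:**
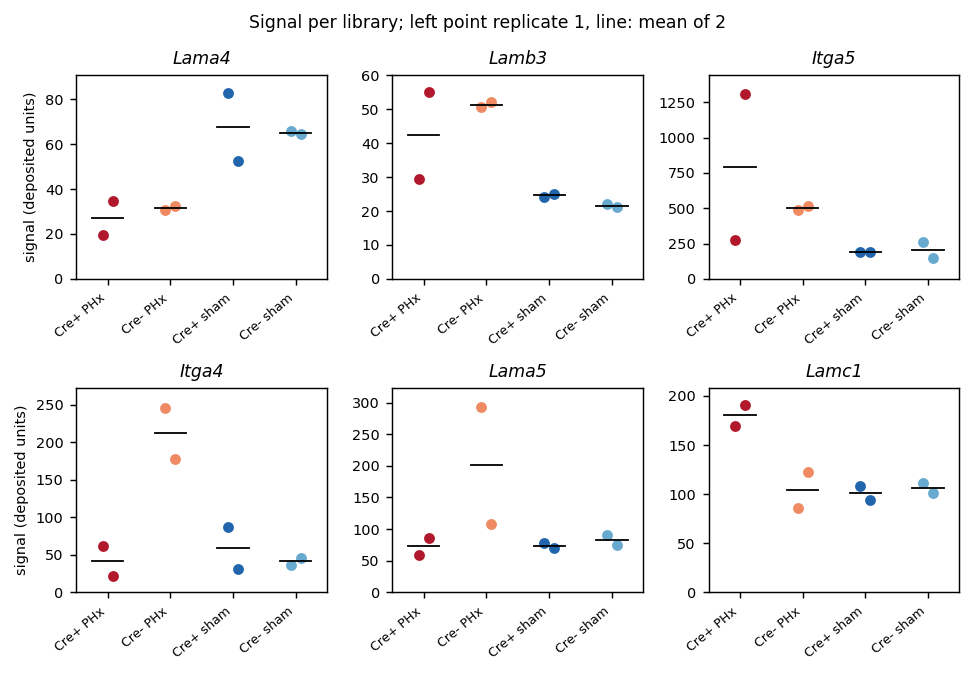
The deposited signal of 6 members is plotted from 0 on a linear axis, 1 point per library with replicate 1 on the left, and the line is the mean of 2; PHx means 72 h after partial hepatectomy. Lama4 reaches 34.8 at most after hepatectomy and at least 52.5 after sham, Itga5 is spread between 277 and 1306 in Cre-positive hepatectomy, and Itga4 and Lamc1 each have 1 hepatectomy group above the rest.

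The other RGD-binding subunits, named for the short peptide motif they recognise, did not follow Itga5. Itga8, a receptor of mesenchymal cells, had 43.9 and 24.3 in Cre-positive hepatectomy and 50.9 and 70.9 in Cre-negative hepatectomy, against 74.8 and 59.9 in Cre-positive sham and 57.5 and 112 in Cre-negative sham (averaged log2 fold change -0.71, SE 0.31, adjusted p = 0.22). The lowest values were those of Cre-positive hepatectomy, and Cre-negative hepatectomy overlapped with sham. Itgav, a receptor for vitronectin and for latent TGF-beta, had 263 and 62.9 in Cre-positive hepatectomy and 246 and 265 in Cre-negative hepatectomy, against 215 and 202 in Cre-positive sham and 237 and 260.4 in Cre-negative sham, so that 1 library of 8 stood apart. Itga2b, the platelet fibrinogen receptor subunit, ranged from 16.8 to 108 in hepatectomy and from 50.1 to 77.2 in sham libraries, while 5 of 7 other platelet markers were too low to test.

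Of the collagen-binding subunits, Itga2 had 5.54 and 7.52 in Cre-positive hepatectomy and 6.72 and 9.19 in Cre-negative hepatectomy, against 4.73 and 5.11 in Cre-positive sham and 2.54 and 5.52 in Cre-negative sham. The groups did not overlap, with 5.54 beside 5.52 at the border, and the averaged log2 fold change was 0.61 (SE 0.31, adjusted p = 0.271). Itga1, the collagen receptor of many mesenchymal cells, had 283 and 72.8 in Cre-positive hepatectomy and 138 and 156 in Cre-negative hepatectomy, against 222 and 185 in Cre-positive sham and 186 and 213 in Cre-negative sham. Cre-negative hepatectomy lay below every sham library, and the Cre-positive pair spanned the whole range. Itga11, a fibroblast collagen receptor, was low, between 0 and 10.5 in hepatectomy and 0.55 and 2.09 in sham libraries. Of the laminin-binding subunits, Itga6 had 23.7 and 31.7 in Cre-positive hepatectomy and 29.1 and 15.2 in Cre-negative hepatectomy, against 18.9 and 10.4 in Cre-positive sham and 15.6 and 15.1 in Cre-negative sham (averaged 0.67, SE 0.32, adjusted p = 0.243). Itga3 ranged from 51.05 to 113 in hepatectomy and from 57.6 to 79.7 in sham libraries, and Itga7 from 94.6 to 183 and from 109.6 to 121.

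Itgb1, the beta subunit that pairs with most of the alpha subunits named here, had 2247 and 522 in Cre-positive hepatectomy and 984 and 1473 in Cre-negative hepatectomy, against 1744 and 1610.4 in Cre-positive sham and 1763 and 1858 in Cre-negative sham. The sham libraries lay close together and the Cre-positive hepatectomy libraries were the highest and the lowest of all (averaged log2 fold change -0.61, SE 0.43, adjusted p = 0.401). Without replicate 1 of that group it passed as lower, at -1.13 with an adjusted p of 0.0077, and without it Itgav and Itga1 passed as lower too, at -0.84 and -0.95, in a setting where 32.7% of all genes passed. Without replicate 2 none of these 3 passed, with Itgb1 at -0.08 (adjusted p = 0.798), Itgav at 0.19 and Itga1 at 0.02. Itgb5, a partner of Itgav that binds vitronectin, had 558 and 986 in Cre-positive hepatectomy and 383 and 618 in Cre-negative hepatectomy, against 496 and 455 in Cre-positive sham and 421 and 449 in Cre-negative sham (averaged 0.40, SE 0.24, adjusted p = 0.341). Itgb3, a partner of Itga2b and Itgav, ranged from 34.3 to 67.1 in hepatectomy and from 42.3 to 75.0 in sham libraries, and Itgb4, the partner of Itga6 in hemidesmosomes, from 2.89 to 32.6 and from 6.36 to 11.4.

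Within Cre-negative livers, 0 of 36 members passed for hepatectomy against sham, where 1.11% of all genes did, and 5 had an unadjusted p under 0.05, where 21.3% of all genes did. These were Itga4, Lamb3, Itga10 and Lama5 on the higher side and Lama4 on the lower. The members' median was 0.30 and that of all genes 0.21, which became 0.08 and -0.002 with median-of-ratios scaling. Within Cre-positive livers, 0 of 36 passed against 0.943% of all genes, and 5 had an unadjusted p under 0.05 against 13.5%: Lamc1, Itgal, Itga5 and Lama1 on the higher side and Lama4 on the lower. The members' median there was -0.05 and that of all genes 0.02. Leaving out replicate 1 of Cre-positive hepatectomy raised the count in Cre-positive livers to 7, with Itga5, Itgae, Lama1 and Lamb3 higher and Itga1, Itgav and Itgb1 lower, while 21.2% of all genes passed, and leaving out replicate 2 gave 0. Leaving out either library of that pair gave 3 in Cre-negative livers, Itga4, Itga5 and Lamb3, with fold changes as before, while 10.3% of all genes passed without replicate 1 and 9.99% without replicate 2.

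**Figure D3:**
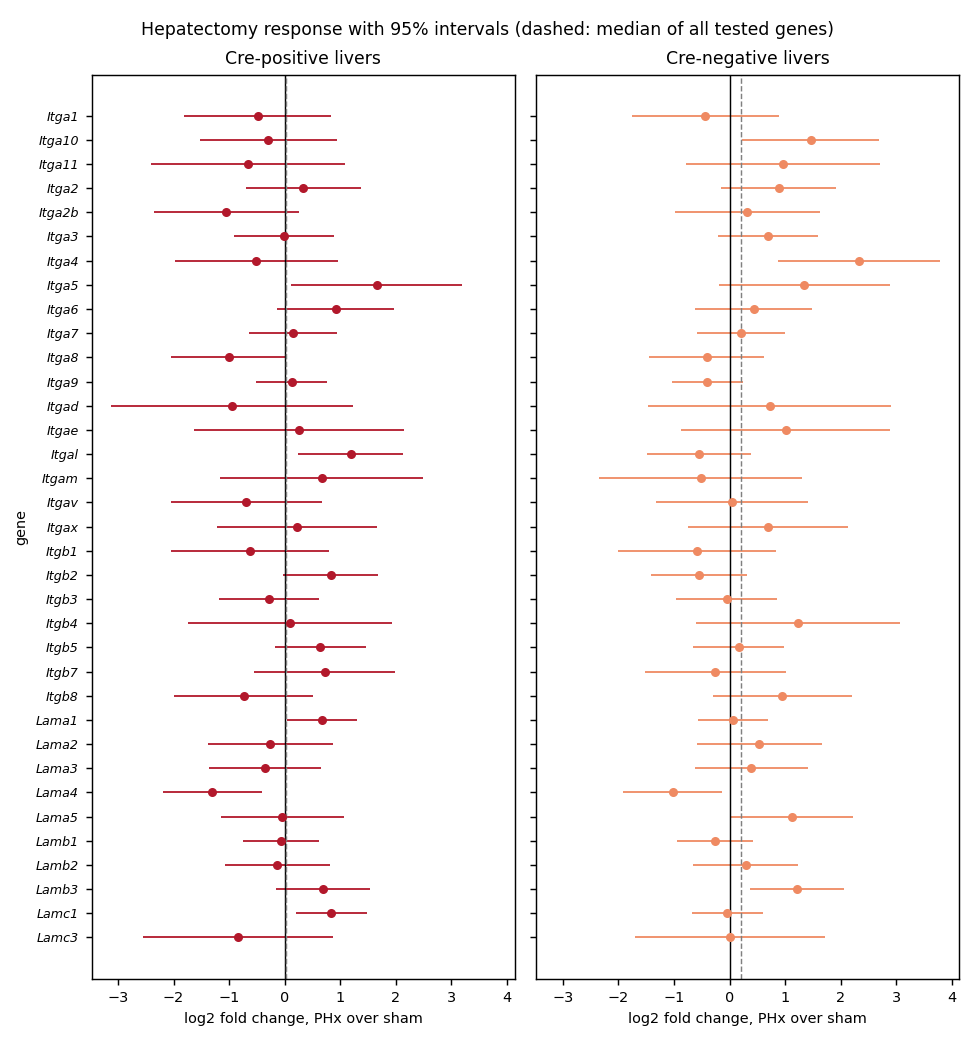
Points are log2 fold changes of hepatectomy over sham (PHx over sham) for tested genes in Cre-positive livers, left, and Cre-negative livers, right, with 95% intervals from limma and the all-gene median dashed at 0.02 on the left and 0.21 on the right. Lama4 lies below 0 on both sides, at -1.30 and -1.02, while Itga4 is at -0.51 in Cre-positive and 2.33 in Cre-negative livers.

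The genotypes were compared next. In sham livers, Cre-positive against Cre-negative, 0 of 36 members passed and 0 had an unadjusted p under 0.05, where 0.00608% and 0.888% of all genes did. The members' median log2 difference was -0.12 and that of all genes -0.03. The smallest p belonged to Itgb7, a leukocyte beta subunit, at 10.02 and 13.9 in Cre-positive sham against 21.4 and 20.8 in Cre-negative sham, and its interval ran from -2.05 to 0.48. The other members of smallest p there, Itgae, Itgax, Itga9, Itga10 and Itga2, had values of -0.86, -0.58, -0.24, -0.36 and 0.30, all with an adjusted p of 1.

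Among hepatectomy livers, Cre-positive against Cre-negative, 0 of 36 members passed where 0.0182% of all genes did, and 10 had an unadjusted p under 0.05 where 18.3% of all genes did. They included Itgal, Itgb2 and Lamc1, the 3 on the higher side, and Itga10, Itga4, Itgb8, Lama5, Itga11 and Itga2b among the 7 on the lower. The members' median was -0.40 and that of all genes -0.23. For the difference of the hepatectomy response, Cre-positive minus Cre-negative, 0 of 36 passed against 0.0122% of all genes, and 4 had an unadjusted p under 0.05 against 8.09%: Itgal and Itgb2 higher, Itga4 and Itga10 lower. The medians there were -0.49 for the members and -0.20 for all genes. These comparisons share the hepatectomy libraries. Without replicate 1 of Cre-positive hepatectomy, 6 members passed between the genotypes after hepatectomy, Itga5 and Itgb2 as higher and Itga1, Itga4, Itgav and Itgb1 as lower, while 13.4% of all genes passed, and Itgav alone passed for the difference of responses, at -1.75 with an adjusted p of 0.0234, while 4.66% of all genes did. Without replicate 2 of that group 0 members passed in either comparison, and Itgav had 0.29 for the difference of responses.

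Itga4, the subunit of the VCAM1 and fibronectin receptors of leukocytes, had 61.5 and 21.1 in Cre-positive hepatectomy and 246 and 177 in Cre-negative hepatectomy, against 86.8 and 30.9 in Cre-positive sham and 36.1 and 46.1 in Cre-negative sham. The Cre-negative hepatectomy pair lay above the other 6 libraries, and the Cre-positive groups overlapped. The log2 difference between genotypes after hepatectomy was -2.50 (SE 0.62, adjusted p = 0.142), and the difference of responses was -2.84 (SE 0.88, adjusted p = 0.562). Between genotypes it was -3.25 without replicate 1 of Cre-positive hepatectomy and -1.75 without replicate 2. Itga10, a collagen receptor known from cartilage, had 6.44 and 12.9 in Cre-positive hepatectomy and 48.6 and 38.3 in Cre-negative hepatectomy, against 7.76 and 16.8 in Cre-positive sham and 20.2 and 11.2 in Cre-negative sham. Again the Cre-negative hepatectomy pair was above the rest (-2.12 between genotypes, SE 0.52, adjusted p = 0.141), with -1.67 without replicate 1 and -2.57 without replicate 2 of Cre-positive hepatectomy. Itga9, a relative of Itga4 that binds tenascin and osteopontin, had 161 and 193 in Cre-positive hepatectomy and 159.8 and 131 in Cre-negative hepatectomy, against 189 and 138 in Cre-positive sham and 177 and 207 in Cre-negative sham.

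Itgal and Itgb2 encode the alpha and beta subunits of LFA-1, the leukocyte receptor for ICAM1, and both were highest in Cre-positive hepatectomy. Itgal had 388 and 339 there and 168 and 96.2 in Cre-negative hepatectomy, against 225 and 112 in Cre-positive sham and 183 and 192 in Cre-negative sham. Itgb2 had 115 and 174 in Cre-positive hepatectomy and 74.9 and 41.7 in Cre-negative hepatectomy, against 87.8 and 72.0 in Cre-positive sham and 79.2 and 85.4 in Cre-negative sham. For both genes the Cre-positive hepatectomy pair was above the other 6 libraries, and the Cre-negative hepatectomy pair was below both Cre-negative sham libraries. The share of all genes with 1 pair above the other 6 libraries was not computed, for these or other members. The log2 difference between genotypes after hepatectomy was 1.51 for Itgal (SE 0.40, adjusted p = 0.154) and 1.32 for Itgb2 (SE 0.37, adjusted p = 0.159). For Itgal it was 1.41 without replicate 1 and 1.60 without replicate 2 of Cre-positive hepatectomy. For Itgb2 it was 1.62 without replicate 1 and 1.03 without replicate 2.

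**Figure D4:**
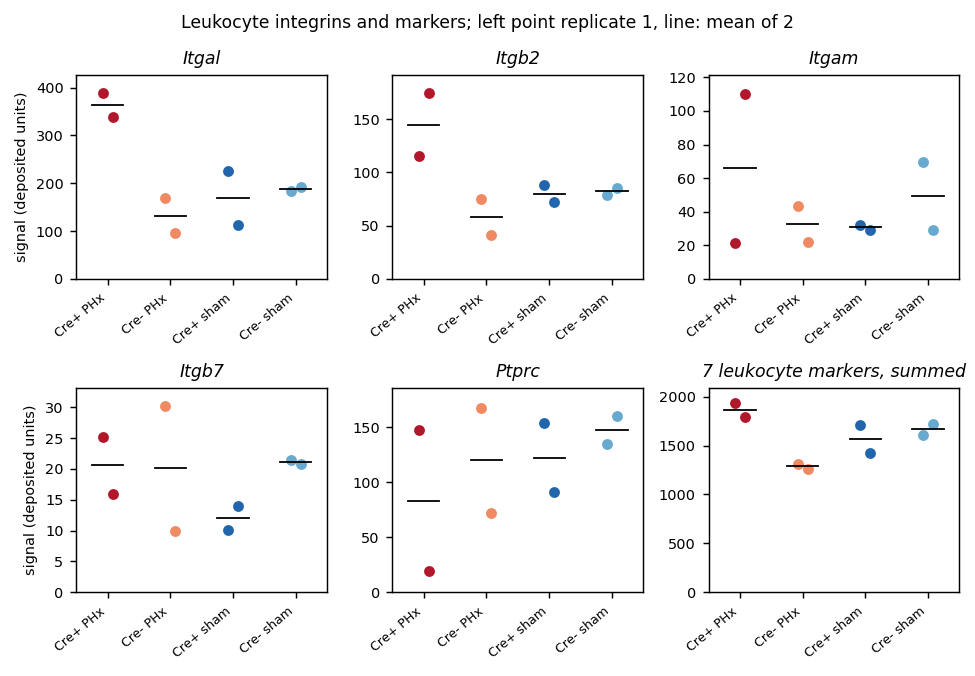
The signal of 4 leukocyte integrin genes, of the leukocyte gene Ptprc and of 7 pan-leukocyte markers summed is plotted from 0 on linear axes, 1 point per library with replicate 1 on the left and the line at the mean of 2; PHx means 72 h after partial hepatectomy. Itgal, Itgb2 and the summed markers are highest in the Cre-positive hepatectomy pair, while Ptprc is at 18.9 in its replicate 2 and 147 in its replicate 1.

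Summed pan-leukocyte, Kupffer cell and monocyte and neutrophil markers were also highest in the Cre-positive hepatectomy pair, while summed lymphocyte markers and several single markers, Ptprc among them, were not. Between genotypes after hepatectomy, 5 of 7 pan-leukocyte and 10 of 10 Kupffer cell markers were higher in Cre-positive livers, where 37% of all genes were. Their median log2 differences were 0.25 and 0.75. Of the monocyte and neutrophil markers 7 of 11 were higher, with a median of 0.22. Only 3 of 8 tested lymphocyte markers were, with a median of -0.70. The shift was not particular to leukocytes, since 9 of 10 sinusoidal endothelial markers were higher too, with a median of 0.70. The sum of 7 pan-leukocyte markers was 1938 and 1794 in Cre-positive hepatectomy and 1313 and 1264 in Cre-negative hepatectomy, against 1422 to 1718 in sham libraries, and that of 10 Kupffer cell markers was 4634 and 4785 in Cre-positive hepatectomy and 2665 and 2062 in Cre-negative hepatectomy, against 1705 to 2685 in sham libraries. None of these markers was at 0, and 0 of them passed between genotypes after hepatectomy, where 0.0182% of all genes did. The sum of 11 monocyte and neutrophil markers was 14549 and 20665 in Cre-positive hepatectomy and 10066 and 10771 in Cre-negative hepatectomy, against 5370 to 10874 in sham libraries, with Mpo at 0 in 1 Cre-negative hepatectomy library and Camp in 2 sham libraries. The sum of 11 T, NK and B lymphocyte markers was 16.6 and 63.7 in Cre-positive hepatectomy, the lowest and the highest of the 8 libraries, and 50.1 and 43.7 in Cre-negative hepatectomy, against 23.9 to 33.7 in sham libraries. Cd3e, Cd3g and Klrb1c were at 0 in 1 Cre-negative hepatectomy library, and Klrb1c in replicate 2 of Cre-positive hepatectomy. In the same comparison, between genotypes after hepatectomy, 0 of 11 monocyte and neutrophil markers and 0 of 8 tested lymphocyte markers passed, beside 0.0182% of all genes. Ptprc, which marks all leukocytes, had 147 and 18.9 in Cre-positive hepatectomy and 168 and 71.7 in Cre-negative hepatectomy, against 90.9 to 160.2 in sham libraries. Of the same 7 pan-leukocyte markers, Coro1a, Cd53, Lcp1 and Fcer1g were also not highest in both Cre-positive hepatectomy libraries, while Laptm5 and Tyrobp were. The part of leukocyte number in the Itgal and Itgb2 values was not tested. The other leukocyte subunits did not follow: Itgam, the partner of Itgb2 on myeloid cells, had 21.6 and 110.3 in Cre-positive hepatectomy and 43.2 and 22.2 in Cre-negative hepatectomy, against 32.1 and 29.3 in Cre-positive sham and 69.4 and 28.9 in Cre-negative sham. Itgax, of dendritic cells, had 3.62 and 11.97 in Cre-positive hepatectomy and 22.9 and 9.68 in Cre-negative hepatectomy, against 6.99 and 4.50 in Cre-positive sham and 8.41 and 9.44 in Cre-negative sham. Itgae, of intraepithelial lymphocytes, had 0.25 and 7.19 in Cre-positive hepatectomy and 8.47 and 9.05 in Cre-negative hepatectomy, against 1.78 and 1.59 in Cre-positive sham and 4.53 and 3.27 in Cre-negative sham. Both were low, and in both the Cre-positive hepatectomy libraries lay far apart. Itgb7, the partner of Itgae and Itga4, had 25.2 and 15.95 in Cre-positive hepatectomy and 30.3 and 9.95 in Cre-negative hepatectomy, which overlapped. Itgad, of some macrophages, was between 0 and 6.10 in all libraries.

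Itgb8, a partner of Itgav that releases active TGF-beta, was low throughout, at 0.19 and 0 in Cre-positive hepatectomy and 5.49 and 1.70 in Cre-negative hepatectomy, against 0.84 and 0.81 in Cre-positive sham and 1.66 and 0.76 in Cre-negative sham. The Cre-positive hepatectomy pair was the lowest of the 8 and the Cre-negative pair the highest (log2 difference between genotypes after hepatectomy -1.94, SE 0.53, adjusted p = 0.159). At this level the added pseudocount of 1 compresses the difference. In all, 3 of 36 members had opposite, non-overlapping directions after hepatectomy in the 2 genotypes (Itgal, Itgb2 and Itgb8), 8.33% where 6.85% of all genes did, and 4 of 36 had the same non-overlapping direction in both, 11.1% where 21.9% of all genes did.

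Replicate 2 of Cre-positive hepatectomy deviated most from the sham mean along the GC content of transcripts, and the members took part in this. Over all genes its median deviation was -1.60 on the log2 scale under 40% GC, -0.95 at 40 to 45% GC and 0.66 at 55% GC and over. The 7 members at 40 to 45% GC had a median of -1.45 and the 12 members at 55% and over one of 0.51. In replicate 1 those medians were 0.29 and -0.38. Across the 36 members, genes that share these libraries and are not independent replicates, Pearson's r between GC and the deviation was 0.531 (Spearman's rho 0.404) in replicate 2 and -0.181 in replicate 1, and over 14566 genes r in replicate 2 was 0.475. Both Cre-negative hepatectomy libraries climbed with GC too over all genes, with medians of -0.07 under 40% GC and 0.61 at 55% and over in replicate 1 (r = 0.159) and of -0.07 and 0.39 in replicate 2 (r = 0.13), while in replicate 1 of Cre-positive hepatectomy they were -0.06 and -0.11 (r = -0.06). Across the 36 members r was 0.153 and -0.028 in Cre-negative hepatectomy replicates 1 and 2. Itga5, at 57.5% GC, deviated by 2.75 in replicate 2 and 0.52 in replicate 1, whereas Itgb1 (44.9% GC) deviated by -1.74 and 0.37, Itgav (43.6%) by -1.84 and 0.21, Itga1 (42.8%) by -1.45 and 0.49 and Itga4 (41.1%) by -1.09 and 0.41. Lama4, at 50.03% GC, deviated by -0.89 and -1.70. After the GC trend was removed from each library, an alternative chosen after seeing the data, Lama4 passed in the averaged comparison (-1.26, adjusted p = 0.0187) and Itga4 in Cre-negative livers (2.36, adjusted p = 0.0411). In these 2 comparisons 7.58% and 3.25% of all genes passed.

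**Figure D5:**
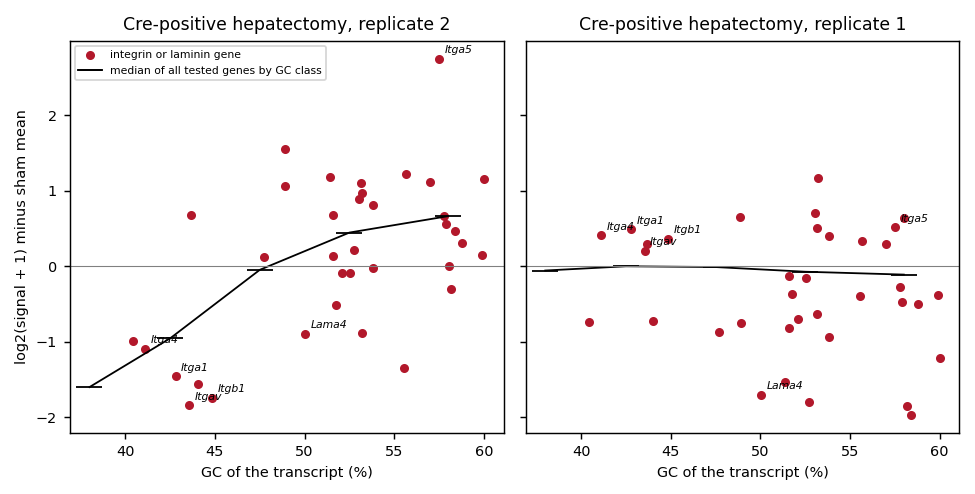
Each point is 1 of the 36 members, with the GC content of its transcript in percent against its deviation from the sham mean on the log2(signal + 1) scale, for replicate 2 of Cre-positive hepatectomy on the left and replicate 1 on the right; bars joined by a line are medians of all tested genes by GC class. The left panel climbs from -1.60 under 40% GC to 0.66 at 55% and over, with Itgb1 at -1.74 and Itga5 at 2.75, and the line in the right panel stays between -0.11 and 0.

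The genes that work with these subunits were read from 4 lists, for hepatectomy against sham averaged over genotypes. In that comparison 4.49% of all genes passed. Of 22 tested basement membrane partners, 2 rose and 1 fell. Col4a1 and Col4a2, the chains of the main collagen IV, rose by 0.94 and 0.97 on the log2 scale (adjusted p = 0.0412 and 0.0446), with Col4a1 at 807 and 924 in Cre-positive hepatectomy and 617 and 435 in Cre-negative hepatectomy, against 387 and 336 in Cre-positive sham and 296 and 385 in Cre-negative sham. Ntn4, a netrin that binds laminin, fell by 1.28 (adjusted p = 0.0358). Of 16 non-integrin laminin receptors and their tetraspanin partners, 3 rose and 0 fell: Cd63 (1.78, adjusted p = 0.00547), Lgals3 (1.69, adjusted p = 0.0198) and Cd9 (1.56, adjusted p = 0.029). Cd63, a tetraspanin of endosomes and integrin complexes, had 169 and 249 in Cre-positive hepatectomy and 172 and 154 in Cre-negative hepatectomy, against 47.2 to 54.7 in sham libraries, and passed within each genotype. Of 22 other integrin ligands, 1 rose, Fbn1, which encodes fibrillin (0.92, adjusted p = 0.0377). Of 39 cytoplasmic adaptors and regulators, 1 fell, Tns1, a tensin that links integrins to actin (-0.79, adjusted p = 0.0357), at 659.6 to 721 in hepatectomy and 979.9 to 1332 in sham libraries. Cd63 was the only gene of the 4 lists to pass within a genotype, and 0 passed between genotypes or for the difference of responses. The lists' medians in the averaged comparison were 0.38 for basement membrane partners, 0.06 for other ligands, 0.10 for adaptors and 0.44 for non-integrin laminin receptors, beside 0.12 for all genes.

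Isoform values of the members varied between replicates. The table held 181 isoforms of the members, of which 86 reached 10% of their gene in at least 1 library. Of 29 members with several isoforms and a signal in every library, 17 kept the same leading isoform in all 8 libraries, 58.6%, against 52.1% of all genes. For Lama4, Lama4-001 held between 79.8% and 100% in every library. For Lamb3, Lamb3-002 led in 6 libraries at 69.7% or more, and Lamb3-001 led in replicate 2 of Cre-positive hepatectomy at 56.0% and in replicate 1 of Cre-negative sham at 59.8%, so the gene's value came from different isoforms within 1 group. For Itga10, Itga10-201 held 92.5% in one Cre-negative hepatectomy library and 5.7% in the other. Itga5, Itga2 and Lama1 each had 1 isoform that held 100% in all libraries.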

How the data were processed

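Whole-liver RNA was sequenced from TruSeq libraries, per the labels' protocols. The submitters' processing notes name TopHat and Cufflinks with the builds mm9 and NCBIM37; for versions and normalization, nothing is given in the sources used here. The authors deposited 1 normalized signal value for each gene and each isoform. They are not counts: isoform values at the same rank were close across libraries, at 185 to 195 at rank 5000 and 15.7 to 16.3 at rank 20000. At rank 1000 they ran from 1037 to 1262, so the distributions were similar but not equal. The design had allowed for FPKM, and its limma test was applied to the signal unchanged. Whether the signal is per length is not given, so levels of different genes are not ranked, and without read counts no counting interval is given.

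Samples were grouped by their titles, with replicates numbered in accession order, and 0 columns were unmapped. Log2(signal + 1) was tested in R 4.3.3 with limma 3.58.1 for genes averaging 1 or more, a scale that understates changes of low genes. The model had 4 group means, a shared spread and an intensity trend (4 residual and 3.245 prior degrees of freedom). P-values are two-sided and Benjamini-Hochberg adjusted over all genes tested, with a threshold of 0.05, and SE and intervals come from this model. The code was tested on simulated data.

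Values in every library were given for members past the threshold, the 12 of smallest p in the averaged hepatectomy comparison, the 6 of smallest p in each genotype comparison and the 2 of highest mean in each class, and ranges for the rest; 1 member is counted but not reported by name here. Isoforms that reached 10% of their gene in a library were summarised. Members and lists were chosen with earlier results of these data known. GC content is that of a gene's longest protein-coding transcript (else its longest) in GENCODE vM21, matched by symbol for 88.6% of the tested genes and all 36 members. Up to 17 alternatives were run for each comparison.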

Additional observations from a re-analysis of the deposited data

Results flagged for a closer look

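For 3 members, hepatectomy livers lay on one side of sham livers in Cre-positive mice and on the opposite side in Cre-negative mice, in every library. For Itgal, the LFA-1 alpha subunit, the difference of the log2 responses, Cre-positive minus Cre-negative, was 1.74 (limma adjusted p = 0.568). For its partner Itgb2 it was 1.37 (adjusted p = 0.591), and for Itgb8, an Itgav partner, -1.69 (adjusted p = 0.633). The difference itself passed for 0 of these 3. Such opposite directions occurred in 8.33% of the members and 6.85% of all genes tested. Leaving out replicate 1 or replicate 2 of Cre-positive hepatectomy gave 1.64 and 1.84 for Itgal, 1.67 and 1.07 for Itgb2 and -1.82 and -1.57 for Itgb8, and no adjusted p under 0.05.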

How the results depend on the processing

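No paired analysis was possible because the labels give the groups no shared replicate numbers. Of the alternatives for the named members, 475 kept their direction and side of the threshold, 9 newly passed and 3 reversed. The reversals concerned genotype in sham livers: Itga10 was -0.36 with all libraries but 0.15 when replicate 1 of Cre-positive sham was left out and 0.04 when replicate 1 of Cre-negative sham was (leave-one-out range -0.88 to 0.15), and Itga2 was 0.30 with all and -0.14 without Cre-negative sham replicate 1 (-0.14 to 0.74). The number of members that passed, 0 throughout with all libraries, was 1 for hepatectomy in Cre-negative livers when only its groups were fitted (1.72% of all genes passed) and 1 with GC bin medians removed (3.25%), and 1 in the averaged comparison both with median-of-ratios scaling (3.85%) and with GC bin medians removed (7.58%), a GC alternative chosen after seeing the data. Leaving out 1 library gave 0 to 3 members in Cre-negative livers, 0 to 7 in Cre-positive livers, 0 to 10 averaged over genotypes, 0 to 6 for genotype after hepatectomy and 0 to 1 for the difference of responses; the upper ends all came without Cre-positive hepatectomy replicate 1 (in Cre-negative livers also without replicate 2). For genotype in sham livers the count was 0 under every alternative. Without that replicate 1, the share of all genes that passed was 10.3% in Cre-negative livers (9.99% without replicate 2), 21.2% in Cre-positive livers, 32.7% in the averaged comparison, 13.4% for genotype after hepatectomy and 4.66% for the difference of responses; with all libraries the averaged share was 4.49%. A library alone in its group was assumed to vary like the others. Other pseudocounts, filters, quantile normalization and dropping the intensity trend gave 0 in every comparison. With 2 libraries per group and unknown depth, differences in low members such as Itga11, Itgad, Itgae and Itgb8 were not resolved.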
